A study of Mus musculus with 6 samples.

Results

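The mevalonate and sterol synthesis genes described here are Hmgcs1, Sqle, Idi1, Fdps, Fdft1, Lss, Insig1 and Srebf2, chosen by symbol because genes of this pathway are known from other systems to be raised by mutant p53. All 8 were found among the 47719 gene identifiers of the expression tables. RNA was measured in whole prostates of 6 mice of the strain B6.129S4-Trp53tm3.1Tyj/J, about 3 months of age, 6 h after 5 Gy of whole body irradiation. Wildtype mice 39 and 41 carried Trp53+/+, heterozygous mice 37 and 40 carried Trp53R270H/+, and homozygous mice 47 and 49 carried Trp53R270H/R270H. No promoter or Cre restricting the allele to the prostate is named, and all 6 mice were irradiated, so no comparison with unirradiated tissue can be made. The question was whether the genes differed between the 3 genotypes.

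The mevalonate pathway builds isoprenoid units from acetyl-CoA and joins them into farnesyl diphosphate, from which squalene and then cholesterol are made, and which also feeds the lipid groups that anchor proteins in membranes. Its enzymes are regulated together by the SREBP transcription factors, which are carried to the Golgi by Scap and released there by proteolysis when sterols are scarce, and which Insig proteins hold back in the endoplasmic reticulum when sterols are plentiful. The prostate is known for its high rate of cholesterol synthesis, and mutant p53 is known to act with SREBP at promoters of this pathway in breast cancer cells.

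Promoter sequence is shown first because SREBP is known to act at promoters of this pathway. RefSeq promoter entries were found for 5 of the 8 members, Hmgcs1, Idi1, Lss, Insig1 and Srebf2, each from 250 bases before to 50 bases after the start of the gene. On both strands, the sterol regulatory element TCACNCCAC was found in 1 of the 5, that of Hmgcs1, against 1.24% of all 32851 promoters. The NF-Y box CCAAT was found in 5 of 5, against 37.4% of all promoters, and the GC box GGGCGG in 5 of 5, against 35.7%. In the stretches below, which lie before the annotated start on the plus strand, capitals mark matches to these motifs as read on the printed strand (ATTGG is CCAAT and CCGCCC is GGGCGG on the other strand), and no match overlaps another.
Hmgcs1, GRCm38.p6 chr13:119690101-119690350: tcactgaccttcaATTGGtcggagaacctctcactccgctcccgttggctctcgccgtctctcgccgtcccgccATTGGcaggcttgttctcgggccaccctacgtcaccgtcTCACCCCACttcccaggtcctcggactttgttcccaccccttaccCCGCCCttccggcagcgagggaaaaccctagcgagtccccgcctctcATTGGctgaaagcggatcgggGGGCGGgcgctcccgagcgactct
Lss, GRCm38.p6 chr10:76531355-76531587: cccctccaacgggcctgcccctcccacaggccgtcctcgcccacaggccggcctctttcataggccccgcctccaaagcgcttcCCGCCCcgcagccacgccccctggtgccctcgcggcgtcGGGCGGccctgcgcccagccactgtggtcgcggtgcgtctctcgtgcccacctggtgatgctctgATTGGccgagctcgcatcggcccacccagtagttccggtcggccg
Insig1, GRCm38.p6 chr5:28071162-28071362: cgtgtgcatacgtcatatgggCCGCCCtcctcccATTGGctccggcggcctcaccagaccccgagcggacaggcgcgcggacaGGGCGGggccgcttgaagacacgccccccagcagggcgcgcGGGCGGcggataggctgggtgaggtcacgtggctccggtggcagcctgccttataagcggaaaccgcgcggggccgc
Srebf2, GRCm38.p6 chr15:82147019-82147180: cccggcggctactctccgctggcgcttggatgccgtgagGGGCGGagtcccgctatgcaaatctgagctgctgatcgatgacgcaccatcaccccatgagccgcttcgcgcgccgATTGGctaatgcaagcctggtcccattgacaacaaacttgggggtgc
The sterol element of Hmgcs1 read TCACCCCAC and lay at 119690214 to 119690222, starting at -137 from the RefSeq start. The matches of Idi1 all lay past its GENCODE start and its stretch is not shown. These matches describe letters in the window only.

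The tissue was checked before the genes were compared. Prostate luminal markers were present in every mouse, but their summed level was 1340 FPKM (fragments per kilobase of transcript, scaled to the mapped fragments of the library) in homozygous mouse 47, against 10700 in mouse 49, 11200 and 11300 in heterozygous and 17100 and 14700 in wildtype animals. Pbsn, the androgen-dependent secretory protein probasin, was at 257 FPKM in mouse 47 and between 7330 and 11500 FPKM in the other mice. Seminal vesicle markers summed to 3360 FPKM in wildtype mouse 39 and to between 30300 and 53800 FPKM in the other mice, although Svs2, Svs4 and Svs5 were listed at 0 in mouse 47 and Svs2 also in mouse 49. In mouse 47 Svs1, Svs3a and Svs6 were at 9140, 7320 and 26100 FPKM, while Svs1 was between 9.22 and 388 FPKM in the other mice. An exact 0 can be a failed estimate in such files, so the sums of mice 47 and 49 are uncertain. Mice 39 and 47 thus stood apart in their secretory genes, and results are also given without them. In whole tissue, fewer cells of a type and less RNA per cell cannot be told apart. Trp53 itself was at 17.3 and 21.4 FPKM in wildtype, 20.9 and 19.6 in heterozygous, and then 20.8 and 18.3 in homozygous mice, which does not check the point mutation. Cdkn1a, the p53 target that encodes p21, was at 109 and 101 FPKM in wildtype, 40.5 and 41.4 in heterozygous, and then 6.70 and 6.17 in homozygous mice, so the order of this target followed the labels.

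All 8 members passed the filter of a mean of at least 1 FPKM, with mean levels over the 6 mice of 5.3 to 29.8 FPKM. Between homozygous and wildtype mice the differences of the members were centred near 0. The 8 members had a median difference of -0.01 on the log2 scale between homozygous and wildtype mice, where the median of all 13818 tested genes was -0.04. Levels were lower in heterozygous mice for every member (median -0.27, 8 of 8 lower, against 7302 of 13818 tested genes, median -0.01). Between homozygous and heterozygous mice the median was 0.32, with 7 of 8 members higher, against 6316 of 13818 tested genes with a median of -0.03. These comparisons share their mice, and no member passed an adjusted p-value of 0.05 in any of them.

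**Figure D1:**
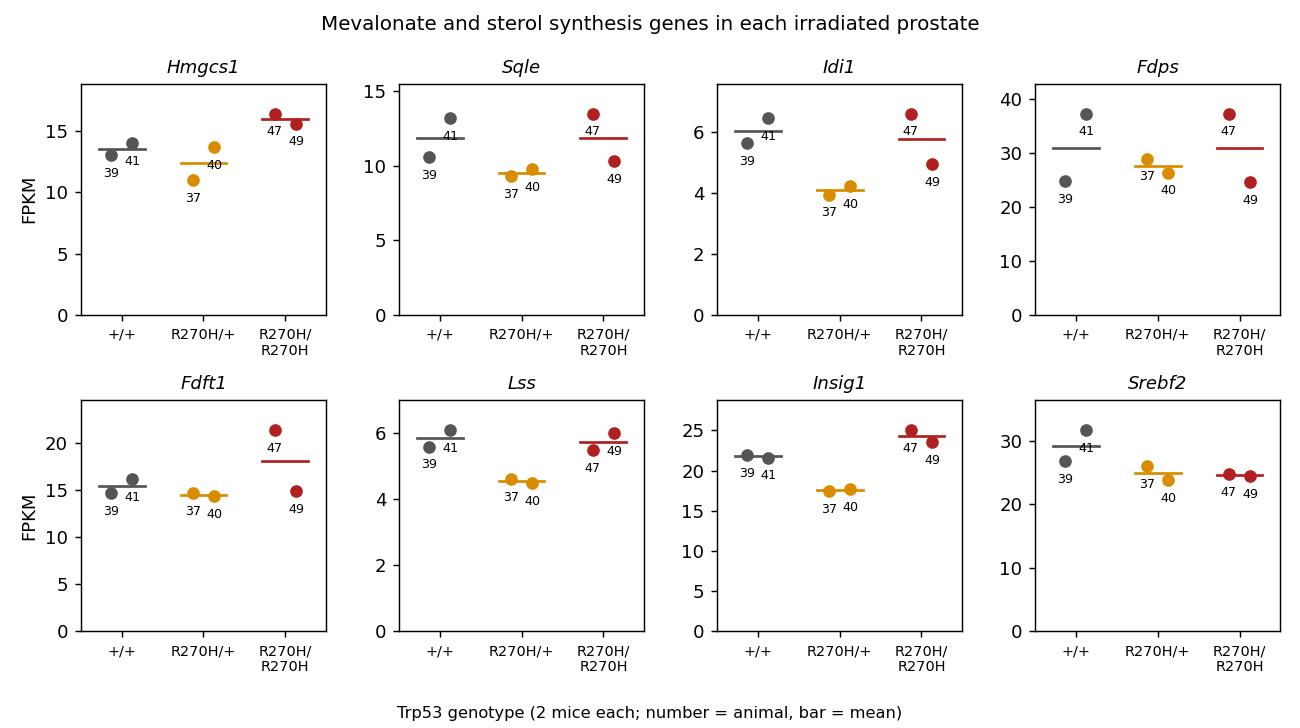
FPKM of the 8 members (vertical axes, from 0) in each mouse (points, labelled by animal) of the 3 Trp53 genotypes (horizontal axes), with the bar at the mean of the 2 mice. Heterozygous mice 37 and 40 are the lowest points for Sqle, Idi1, Lss and Insig1, the 2 homozygous points are the highest for Hmgcs1 and Insig1, and the genotypes overlap for Fdps.

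In the mevalonate steps, Hmgcs1, the synthase of an early step of the pathway, was at 13 and 14 FPKM in wildtype, 11 and 13.7 in heterozygous, and then 16.4 and 15.6 in homozygous mice. Both homozygous values lay above the 4 others. The homozygous mean was higher than wildtype by 0.25 ± 0.14 (log2 difference ± SE, adjusted p = 0.417), with a 95% interval of -0.11 to 0.60. Against heterozygous mice the log2 difference was 0.38, with an interval of 0.02 to 0.73, an unadjusted p-value of 0.0413 and an adjusted p-value of 0.707.

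Idi1, the isomerase that converts isopentenyl to dimethylallyl diphosphate, was at 5.63 and 6.45 FPKM in wildtype, 3.94 and 4.23 in heterozygous, and then 6.60 and 4.95 in homozygous mice. Both heterozygous values were the lowest of the 6, while the homozygous values enclosed those of the wildtype mice. The heterozygous level was 0.682-fold of wildtype, a log2 difference of -0.55 ± 0.19 (SE) with a 95% interval of -1.01 to -0.09 and an adjusted p-value of 0.625. Against wildtype the homozygous difference was -0.08 ± 0.19 (SE, adjusted p = 0.855). Idi1 had the widest separation of group means among the members, 1.47-fold, and none reached 1.5-fold.

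Fdps, the farnesyl diphosphate synthase at the branch point of the pathway, was at 24.7 and 37.2 FPKM in wildtype, 28.9 and 26.3 in heterozygous, and then 37.2 and 24.6 in homozygous mice. Its values in wildtype and homozygous mice covered the same range, and its spread between mice of a genotype was the widest of the members, with a pooled SD of 0.347 on the log2 scale. The difference between homozygous and wildtype mice was 0.00 ± 0.27 (log2, SE, adjusted p = 0.995), with an interval of -0.67 to 0.66 whose upper end is 1.58-fold. The same-strand gene Gm43738 shares exons with Fdps and was at or near 0 FPKM in every mouse.

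In the sterol steps, Fdft1, squalene synthase and the first enzyme committed to sterols, was at 14.7 and 16.2 FPKM in wildtype, 14.7 and 14.4 in heterozygous, and then 21.4 and 14.9 in homozygous mice. The high value was that of mouse 47 alone. The homozygous difference from wildtype was 0.22 ± 0.19 (log2, SE, adjusted p = 0.579) and -0.05 without mouse 47. Fdft1 exons overlap those of Ctsb on the opposite strand over 774 bases. Ctsb was at 67.7 to 80.9 FPKM, and since the strand setting of the counting is not given in the sources used here, the share of its reads in the Fdft1 values is uncertain.

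Sqle, squalene epoxidase and a rate-limiting enzyme of the sterol steps, was at 10.6 and 13.2 FPKM in wildtype, 9.31 and 9.77 in heterozygous, and then 13.5 and 10.3 in homozygous mice. The heterozygous mice again had the lowest 2 values, with mouse 49 next at 10.3. The log2 difference from wildtype was -0.31 ± 0.18 (SE, adjusted p = 0.853) in heterozygous and -0.01 ± 0.18 (SE, adjusted p = 0.988) in homozygous mice.

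Lss, lanosterol synthase, which closes the sterol rings, was at 5.58 and 6.07 FPKM in wildtype, 4.59 and 4.47 in heterozygous, and then 5.47 and 5.98 in homozygous mice. The heterozygous values lay below the 4 others, and the homozygous and wildtype values interleaved. The heterozygous level was 0.782-fold of wildtype, a log2 difference of -0.36 ± 0.14 (SE) with an interval of -0.69 to -0.02 and an adjusted p-value of 0.695. The homozygous difference from wildtype was -0.02 (adjusted p = 0.942), with an interval of -0.36 to 0.31.

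Of the regulators, Insig1, a SREBP target whose protein retains SREBP in the endoplasmic reticulum, was at 21.9 and 21.6 FPKM in wildtype, 17.4 and 17.7 in heterozygous, and then 25.0 and 23.5 in homozygous mice. The 3 genotypes did not overlap, in the order heterozygous, wildtype, homozygous, which is not the order of the number of mutant alleles. Its spread between mice of a genotype was the smallest of the members, with a pooled SD of 0.0392 on the log2 scale. The homozygous level was 1.38-fold of heterozygous, a log2 difference of 0.47 with an interval of 0.21 to 0.72, an unadjusted p-value of 0.00477 and an adjusted p-value of 0.707. The difference was -0.31 ± 0.10 (SE, adjusted p = 0.625) between heterozygous and wildtype mice and 0.16 ± 0.10 (SE, adjusted p = 0.472) between homozygous and wildtype mice. Over the 3 genotypes together, the F-test of limma gave an unadjusted p-value of 0.0126 and an adjusted p-value of 0.325.

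Srebf2, which encodes the SREBP that drives sterol genes, was at 26.8 and 31.6 FPKM in wildtype, 26.0 and 23.8 in heterozygous, and then 24.7 and 24.4 in homozygous mice. It was the 1 member with both homozygous values below both wildtype values, and its heterozygous values were also below them. The difference from wildtype was -0.23 ± 0.13 (log2, SE, adjusted p = 0.853) in heterozygous and -0.25 ± 0.13 (SE, adjusted p = 0.366) in homozygous mice. The latter was the lowest adjusted p-value of any member in any pairwise comparison. Srebf2 thus had its highest levels in wildtype mice, while both Insig1 and Hmgcs1 had theirs in homozygous mice.

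**Figure D2:**
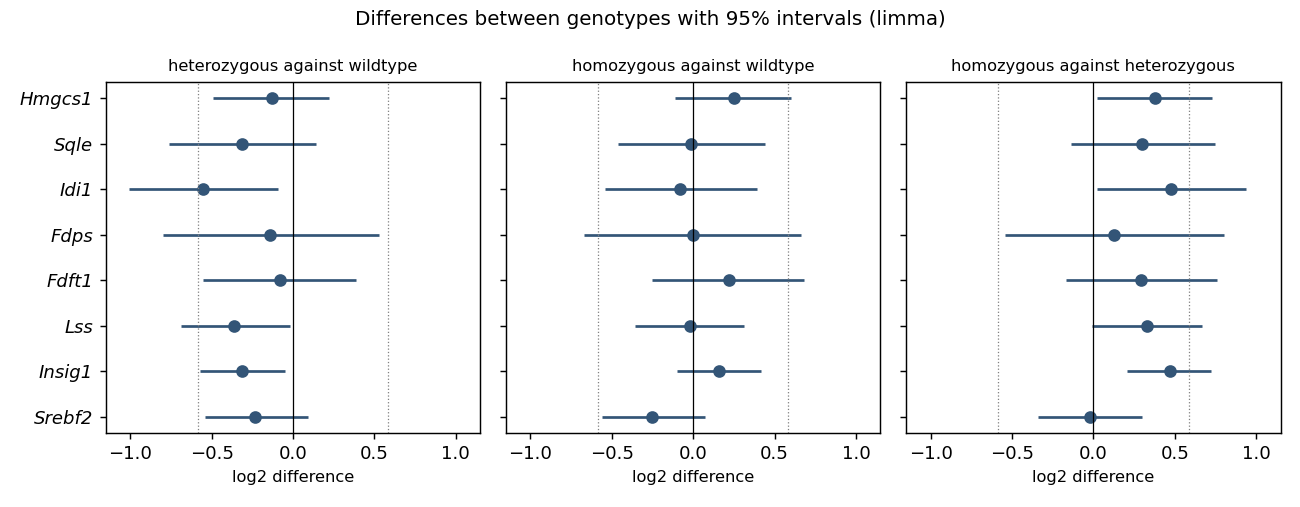
Log2 difference between group means (horizontal axes) of each member for the 3 pairs of genotypes, with points at the limma estimate and bars for the 95% interval; dotted lines mark 1.5-fold. The intervals exclude 0 without adjustment for Idi1, Lss and Insig1 between heterozygous and wildtype mice and for Hmgcs1, Idi1 and Insig1 between homozygous and heterozygous mice, and for no member between homozygous and wildtype mice.

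Counted against all tested genes, 0 of 8 members had an adjusted p-value under 0.05 in limma between homozygous and wildtype mice (0.384% of tested genes did), 0 of 8 between heterozygous and wildtype mice (0% of tested genes), 0 of 8 between homozygous and heterozygous mice (0.0145%) and 0 of 8 over the 3 genotypes (0.101%). The limits used in the study were an unadjusted p-value under 0.05 over the 3 genotypes with at least 1.5-fold between means. The study set them on an analysis of variance of FPKM, and here they were set on the F-test of limma. On that test they were met by 0 of 8 members and by 8.31% of tested genes. At an unadjusted p-value under 0.05, 0 of 8 members differed between homozygous and wildtype mice in either direction, where 18.0% of tested genes did. A linear model on each gene alone gave an unadjusted p-value under 0.05 for 1 of 8 members in that comparison, Insig1. It did so for 1940 of the 13649 genes in that fit, with 0 adjusted calls over all genes. Without mouse 49, which leaves 1 homozygous mouse, the log2 difference of Fdft1 from wildtype was 0.48.

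The heterozygous mice gave a different count. At an unadjusted p-value under 0.05, 3 of 8 members were lower in heterozygous than wildtype mice (Idi1, Lss and Insig1), against 2.21% of tested genes, and 3 of 8 were higher in homozygous than heterozygous mice (Hmgcs1, Idi1 and Insig1), against 1.97%. Both counts use the same 2 heterozygous mice. Without wildtype mouse 39 the first count was 0 of 8 and the second 1 of 8, and without homozygous mouse 47 they were 2 of 8 and 1 of 8. Leaving out wildtype mouse 41, heterozygous mouse 37 or heterozygous mouse 40 also brought the first count to 0, and without homozygous mouse 49 it was 2. The second count was 1 without mouse 41 or 37, 2 without mouse 40 and 3 without mouse 49.

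Ranked by value alone, both heterozygous mice were below the 4 others for 4 of 8 members (Sqle, Idi1, Lss and Insig1), against 4.73% of tested genes, a count chosen after the values were seen. Both heterozygous values were below both wildtype values for 5 of 8 members, against 19.9%. Both homozygous values were above both wildtype values for 2 of 8 members (Hmgcs1 and Insig1), against 21.3% of tested genes, and below them for 1 of 8 (Srebf2), against 28.7%. Both homozygous values were above the 4 other mice for the same 2 members, against 10.6%. As shares of the 8 members, these counts are 50.0% for the lowest heterozygous values and 25.0% for the highest homozygous values. With 2 mice against 2, an exact permutation test of a single gene cannot give a two-sided p-value below 0.333.

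The other enzymes of the pathway were read in the same way. Of a list of 64 genes of sterol and isoprenoid metabolism, 61 passed the filter, and 0 of the 53 beyond the members had an adjusted p-value under 0.05 in any comparison with all mice. Among the genes below the filter, Idi2 was listed at 0 in every mouse and Soat2, an enzyme that esterifies cholesterol, was at 0.103 to 0.219 FPKM. Among the 21 tested synthesis enzymes, members included, 18 (85.7%) were lower in heterozygous than wildtype mice with a median of -0.14, where 52.8% of all tested genes were lower. In homozygous against heterozygous mice 16 (76.2%) were higher with a median of 0.26, where 45.7% of all tested genes were higher. Between homozygous and wildtype mice 12 of the 21 (57.1%) were lower with a median of 0.00, close to the 55.0% of all tested genes. Both heterozygous values were below the 4 other mice for 7 of the 21 (33.3%, against 4.73% of all tested genes). This count too was chosen after the values were seen. Among the 7 were the members Sqle, Idi1 and Lss and the other enzymes Cyp51, Sc5d and Dhcr7.

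Cyp51, the lanosterol demethylase, was at 7.61 and 9.35 FPKM in wildtype, 5.86 and 6.84 in heterozygous mice and 7.06 in homozygous mouse 49, with its highest value in mouse 47. The heterozygous values were the lowest, with a log2 difference from wildtype of -0.41 ± 0.21 (SE, adjusted p = 0.849). Msmo1, a methylsterol oxidase of a later step, differed by -0.49 ± 0.19 (SE, adjusted p = 0.713) in heterozygous mice and by -0.34 in homozygous mice.

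Further along the sterol steps, Sc5d, a desaturase near the end of the route, was at 17.0 and 14.5 FPKM in wildtype, 11.7 and 14.4 in heterozygous, and then 25.6 and 16.7 in homozygous mice. Mouse 47 was the highest, as it was for Fdft1, and the difference between homozygous and heterozygous mice was 0.67 on the log2 scale (adjusted p = 0.707). Nsdhl, a sterol dehydrogenase, had log2 differences from wildtype of -0.24 in heterozygous and 0.02 in homozygous mice, and Dhcr7, a reductase of the last steps, had -0.20 in heterozygous animals and -0.11 in homozygous ones. None of these had an adjusted p-value under 0.05.

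Not every enzyme followed this order. Mvd, which makes isopentenyl diphosphate, was at 9.25 and 10.5 FPKM in wildtype, 10.3 and 8.27 in heterozygous, and then 7.52 and 6.16 in homozygous mice. Both homozygous values were the lowest, with a log2 difference from wildtype of -0.53 ± 0.18 (SE, adjusted p = 0.225). Mvk, mevalonate kinase, differed by -0.44 (adjusted p = 0.321) in homozygous mice, while Pmvk, the phosphomevalonate kinase, differed by 0.09 and Ggps1, the geranylgeranyl diphosphate synthase, by 0.19. Ebp, a sterol isomerase named here after its values were seen, was at 41.1 and 37.6 FPKM in wildtype, 38.6 and 32.1 in heterozygous, and then 21.8 and 25.3 in homozygous mice, a homozygous difference of -0.74 ± 0.15 (log2, SE, adjusted p = 0.128). Enzymes of the same route thus lay on both sides of wildtype in homozygous mice.

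**Figure D3:**
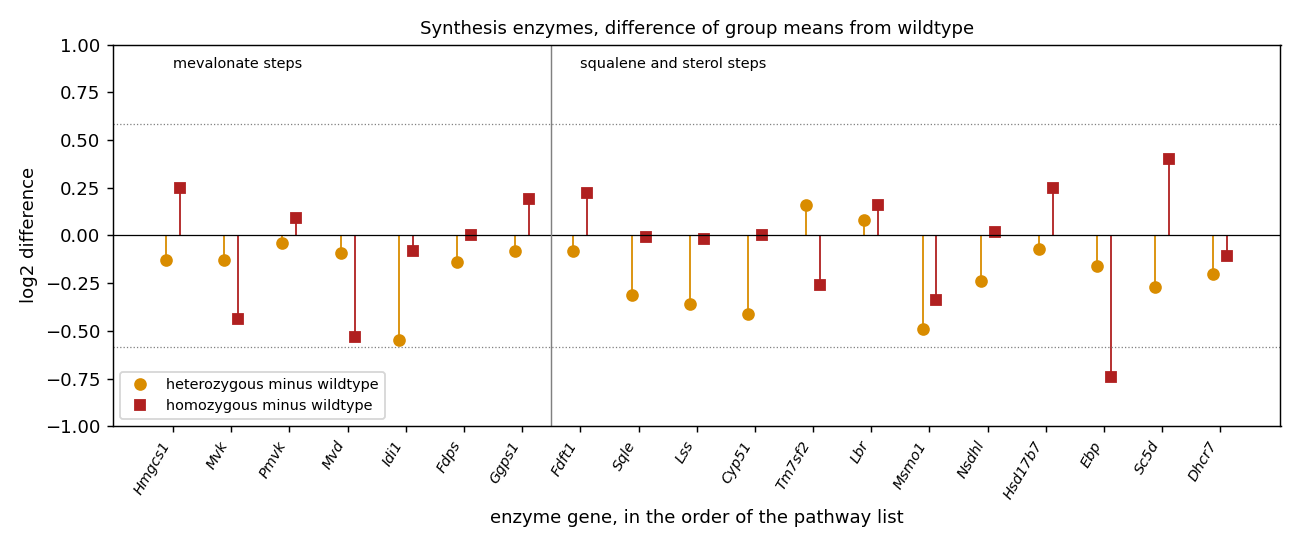
Log2 difference from wildtype (vertical axis) of 19 of the tested synthesis enzymes in pathway order (horizontal axis), with orange circles for heterozygous and red squares for homozygous mice, from the means of 2 mice each, and dotted lines at 1.5-fold. Of the heterozygous circles 17 of 19 lie below 0, and the homozygous squares lie on both sides, from -0.74 for Ebp to 0.40 for Sc5d.

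Among regulators and transport genes, Scap, the escort protein of SREBP, was at 60.1 and 41.1 FPKM in wildtype, 39.8 and 36.2 in heterozygous, and then 27.6 and 31.8 in homozygous mice. Its homozygous values were the lowest of the 6, as those of Srebf2 were below both wildtype values, with a log2 difference from wildtype of -0.74 ± 0.20 (SE, adjusted p = 0.183). Insig2, the relative of Insig1, differed by -0.38 (adjusted p = 0.340) in homozygous and -0.33 in heterozygous mice, so that it did not share the high homozygous values of Insig1. Srebf1, which drives mainly fatty acid genes, differed by 0.08. Stard4, a sterol carrier, differed by 0.65 ± 0.24 (log2, SE, adjusted p = 0.249), and Abca1, which exports cholesterol, by 0.18 ± 0.38 (SE, adjusted p = 0.819).

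Other genes of the list stood apart in mouse 47. Fasn, fatty acid synthase, was at 98.7 FPKM in mouse 47 and between 41.6 and 51.3 FPKM in the other 5 mice. Tmem97, a sterol-related membrane protein named here after its values were seen, was at 10.6 FPKM in mouse 47, 58.0 in mouse 49 and between 76.9 and 110 in the others, a homozygous difference from wildtype of -1.98 ± 0.74 (log2, SE, adjusted p = 0.253). Without mouse 49 it was the 1 gene of the list with an adjusted p-value under 0.05, at -3.20 against wildtype (adjusted p = 0.030) and -3.01 against heterozygous mice (adjusted p = 0.0483), but the homozygous genotype was then mouse 47 alone, whose spread was assumed to be that of the other genotypes, so this describes that mouse and not the genotype. At an unadjusted p-value under 0.05, 12 of the 53 genes beyond the members differed between homozygous and wildtype mice, against 18.0% of tested genes.

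The mean level of the 8 members per mouse, on the log2 scale, was 3.74 and 3.94 in wildtype, 3.57 and 3.59 in heterozygous, and then 4.0 and 3.75 in homozygous mice, with a pooled SD of 0.132. The heterozygous mice were the lowest and closest to each other, and mice 39 and 49 had nearly the same level. Across single members, the 2 animals sharing a genotype differed by a median of 0.09 in heterozygous, 0.17 in wildtype and 0.25 in homozygous mice, where all tested genes had 0.19, 0.21 and 0.22.

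The members' mean level was set beside the marker lists of the tissue. Mouse 47 had the highest member level and the lowest luminal sum. Heterozygous mice and mouse 49 had luminal sums of 10700 to 11300 FPKM with member levels of 3.57 to 3.75. Wildtype mice 39 and 41 had higher luminal sums, 17100 and 14700 FPKM, with member levels of 3.74 and 3.94. Adipocyte markers, genes of a cell type that also makes lipids, summed to 466 and 322 FPKM in wildtype and 392 and 495 in heterozygous mice. In homozygous mice they summed to 690 and 616, and none of the 7 was at 0 in any mouse. The 7 genes did not move alike. Their homozygous log2 differences from wildtype ranged from -0.59 for Lep, through 0.11 for Cidec, to 1.01 for Plin1. Skeletal muscle markers summed to 1470 and 2200 FPKM in wildtype, 4200 and 4410 in heterozygous, and then 5050 and 4510 in homozygous mice, none of the 8 at 0. Smooth muscle markers lay between 1160 and 2050, with the highest sum in mouse 47, and basal markers between 124 and 186. Macrophage markers summed to 99.6 and 101 FPKM in wildtype, 153 and 122 in heterozygous, and then 65.7 and 140 in homozygous mice. Lymphocyte markers were at 2.22 and 2.47 in wildtype, 2.86 and 2.98 in heterozygous, and then 2.32 and 4.07 in homozygous mice. Endothelial markers were at 18.7 and 20.3 in wildtype, 27.4 and 29.8 in heterozygous, and then 24.8 and 31.4 in homozygous mice. The part of these cells in the member levels was not tested.

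**Figure D4:**
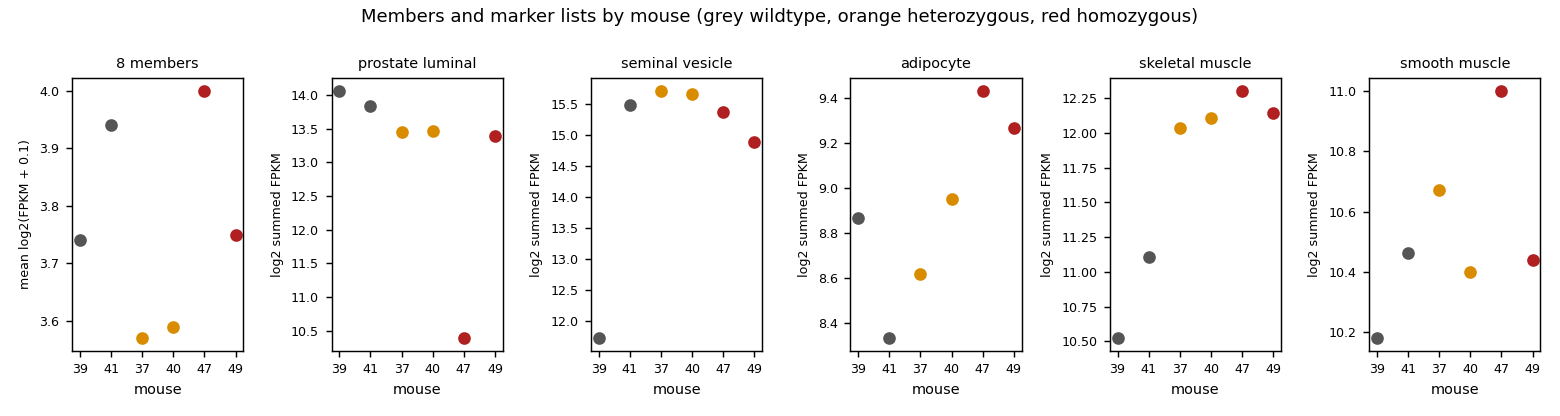
Mean log2(FPKM + 0.1) of the 8 members and log2 of the summed FPKM of 5 marker lists (vertical axes, each with its own range and not from 0) in each mouse (horizontal axes, animal numbers), with grey points for wildtype, orange for heterozygous and red for homozygous mice. Mouse 47 has the highest member level, 4.0, and the lowest luminal sum, and mouse 39 the lowest seminal vesicle sum, while the heterozygous mice have the lowest member levels, 3.57 and 3.59.

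With and without the mice that stood apart, the direction between heterozygous and wildtype mice was kept for the median of the members: -0.27 with all mice, -0.38 without mouse 39 and -0.27 without mouse 47. Between homozygous and heterozygous mice it was 0.32 with all mice, 0.32 without mouse 39 and 0.19 without mouse 47. Between homozygous and wildtype mice it was -0.01 with all mice and -0.12 with either one left out. It was positive without mouse 41, at 0.15, and without mouse 49, at 0.19, so its sign depended on the mice compared. Without mouse 41 the median between heterozygous and wildtype mice was -0.13. No member had an adjusted p-value under 0.05 in any of these fits. Without mouse 39 both heterozygous values were the lowest for 6 of 8 members. With fewer mice this rule is easier to meet, and the share of all tested genes was not worked out.

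The genes whose values over the 6 mice were most like the members' mean standardised level were Emc2, Mtcp1, Tbk1, Snapc3 and Chst11, with Pearson correlations of 0.990, 0.985, 0.983, 0.976 and 0.971. The members' mean standardised level was lowest in heterozygous mice 37 (-0.87) and 40 (-0.79) and highest in mice 47 (0.96) and 41 (0.83). These correlations describe 6 mice. They are the highest among the tested genes outside the pathway list with predicted genes left out, so no p-value is given. Emc2, a subunit of the endoplasmic reticulum membrane complex, was at 26.5 and 27.4 FPKM in wildtype and 25.5 and 25.8 in heterozygous mice, a far narrower range than that of Idi1 or Insig1.

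The members lie apart in the genome (GRCm38). Hmgcs1 is on chr13:119690379-119708260 and Idi1 on chr13:8885501-8892451, Sqle on chr15:59315077-59331192 and Srebf2 on chr15:82147181-82205379. Lss is on chr10:76531588-76557138 and Insig1 on chr5:28071363-28078662, all on the plus strand, while Fdps on chr3:89093588-89101959 and Fdft1 on chr14:63145150-63179578 are on the minus strand. Fdps, Idi1 and Fdft1 have processed pseudogenes with at least 95% identity over at least 200 bases, 4, 2 and 1 of them. Those listed in the files were at most at 0.146 FPKM, so that reads given to the copies were few beside those of the members, though how reads shared between them were assigned is not given in the sources used here.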

How the data were processed

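RNA of 6 irradiated mouse prostates, 1 library a mouse, was measured by stranded mRNA sequencing. Per the labels and the methods, the authors aligned reads to GRCm38 (mm10) with HISAT, quantified genes with Cufflinks and Cuffnorm and deposited gene-level FPKM, which are corrected for gene length and fragments mapped; tool versions, annotation and strand setting are not given in the sources used here. Fragment counts are unknown, so the sampling error of a value is unknown and no count test was run. Low values gave relative fragment numbers of 0.785 (mouse 47) to 1.07 (mouse 49), with mouse 39 set to 1.

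Groups were taken from the genotype labels. Members were found by symbol. A linear model with 3 genotypes was fitted to log2(FPKM + 0.1), keeping the 13818 genes whose mean was at least 1 FPKM, with limma 3.58.1 in R 4.3.3 (lmFit, eBayes with an intensity trend, 2.77 prior and 3 residual degrees of freedom). Fold changes are on that scale, which understates the change of low genes. Adjusted p-values are Benjamini-Hochberg values over all tested genes, and unadjusted ones are named as such. In limma both rest on the spread between 2 mice a genotype, drawn towards the spread of other genes. The test of each gene alone used only the spread of that gene. Where a mouse was left out, the lone mouse was assumed to vary like the other genotypes. No block was used, since the animals are different and no litter or batch is named. Named were the members, 19 fixed genes of the 64-gene pathway list (some are not reported here), any other list gene with an adjusted p-value under 0.05, Trp53, Cdkn1a and the 5 genes of most like pattern; genes named beyond this are said to be. The members, lists and tests were chosen with earlier results of these data known. Alternatives were pseudocounts of 0.01 and 1, no filter or a mean of 5 FPKM, quantile normalization, median scaling, no intensity trend, each gene alone and leaving out each mouse. On simulated data for homozygous against wildtype mice over 13818 genes with 200 changed, 100 were called, of which 94 were changed genes. Of the 100 genes given a log2 change of 2, up or down, 65 were called. The other changed genes were given a log2 change of 1, up or down. Smaller changes, such as those of the members, were not simulated, so their recovery is unknown.

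Positions and overlaps came from GENCODE M21 (47219 of 47719 identifiers matched) and promoters from RefSeq (GRCm38.p6). Other steps ran in Python 3.11.15 (pandas 2.3.3, numpy 2.4.6, matplotlib 3.10.9, scipy 1.17.1).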

Additional observations from a re-analysis of the deposited data

How the results depend on the processing

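No member had an adjusted p-value under 0.05 in limma or the test of each gene alone under any alternative listed in the methods. In the limma fit without these alternatives, the lowest adjusted p-value was 0.366 in the pairwise comparisons and 0.325 in the F-test. The median of the members ranged, leaving out each mouse in turn, from -0.12 to 0.19 between homozygous and wildtype mice (0.15 without mouse 41 and 0.19 without mouse 49), from -0.38 to -0.13 between heterozygous and wildtype mice (-0.13 without mouse 41) and from 0.19 to 0.46 between homozygous and heterozygous mice (0.46 without mouse 49). The direction of some members changed. With quantile normalization the homozygous difference from wildtype was 0.04 for Sqle and 0.11 for Fdps, and with median scaling it was 0.02 for Sqle, 0.02 for Fdps and 0.00 for Lss. The difference of Srebf2 between homozygous and heterozygous mice was 0.05 and 0.01 under these scalings. Leaving out a mouse, the homozygous difference from wildtype ranged from -0.20 to 0.18 for Sqle, -0.28 to 0.13 for Idi1, -0.30 to 0.29 for Fdps, -0.05 to 0.48 for Fdft1 and -0.09 to 0.04 for Lss. The heterozygous difference from wildtype ranged from -0.29 to 0.03 for Hmgcs1 and -0.43 to 0.16 for Fdps, and that between homozygous and heterozygous mice from -0.17 to 0.43 for Fdps and -0.08 to 0.04 for Srebf2. The causes were not tested. In alternatives added after seeing the data, members with both heterozygous values lowest numbered 4 with all mice, 5 with median scaling, 6 with quantile normalization and 4 to 6 leaving out a mouse. The share of all tested genes was not worked out under these alternatives, and the rule is easier to meet with a mouse left out. Over all genes, the 53 adjusted calls between homozygous and wildtype mice became 4 without a filter, 23 without the intensity trend, 0 with each gene alone, 96 without mouse 49 and 4 without mouse 37. No paired analysis was possible because the genotypes share no animal numbers. Unknown fragment counts limit the precision of each value.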
